A study of Mus musculus with 35 samples.

Results

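Very large neuroblastomas were compared with small ones in TH-MYCN mice, the ends of the size range in a series of 35 arrays. The comparison used 12 of these arrays, 6 from tumors titled very large and 6 from tumors titled small in the first set of the study, and the repeat arrays of small tumors from the second set were left out of it. Every mouse in both groups was homozygous for TH-MYCN, a transgene in which the tyrosine hydroxylase promoter drives human MYCN in cells of the sympathetic lineage, so all 12 tumors carried the same driver and none of these arrays came from tissue without it. Mice were imaged by ultrasound from weaning, and each was killed when its tumor reached a set size range. Small tumors weighed 0.05 to 0.1 g and came from mice with life spans of 28 to 42 days. Very large tumors weighed 1.6 to 3 g and came from mice with life spans of 35 to 45 days, so the mice with very large tumors were mostly older. Total RNA from frozen sections of each tumor was converted to digoxigenin-labelled cDNA and hybridised, 1 tumor to an array. The titles give each tumor its own mouse number. The p values measure the spread between tumors within size classes, estimated over all 24 tumors of the first set, medium and large ones included. Litter, sex and array batch were not used here.

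Neuroblastoma arises from neural crest cells on the way to becoming sympathetic neurons and chromaffin cells. Such cells are set by the transcription factors PHOX2A, HAND2 and GATA3 and make noradrenaline through tyrosine hydroxylase and dopamine beta-hydroxylase. MYCN drives ribosome production, metabolism and cell division. Sympathetic ganglia lie beside vessels, brown and white fat, nerve bundles and the muscle of the body wall.

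Levels are log2 intensities after quantile normalization of the 24 tumors of the first set, differences are very large minus small (log2) with their standard error, and a gene was called changed at an adjusted p under 0.05 by limma over 32996 probes. As deposited, the median intensity was 871.24 to 1165.435 on the small tumor arrays and 598.65 to 1160.95 on the very large ones. The mean correlation of an array with its own class was 0.949 to 0.961 for small tumors and 0.932 to 0.955 for very large ones. Very large tumor 4 had the lowest of these medians and correlations and lay apart on the second principal component, which held 7.72% of the variance. Without it 1108 probes were called. Small tumors 3 and 6 were hybridised again in the second set, and the difference between them correlated at r = 0.024 over 32996 probes from one set to the other, so the repeats did not resemble the first arrays in this. Whether an array of either set carries the label of another tumor was not tested, and the labels were kept. Without small tumor 3, 1195 probes were called, and without small tumor 6, 1165. Of the markers of the labelled tissue, Th was at 17.37 to 18.68 on the 12 arrays and Chga at 17.46 to 18.62, above the floor of the scale at 7.39.

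Of the 32996 probes, 1549 were called (4.69%), 742 higher (2.25%) and 807 lower (2.45%) in very large tumors. With 1 probe for each named gene, 806 of 7804 genes were called (10.3%): 314 rose (4.02%) and 492 fell (6.3%). The falls were the larger changes. Among falling genes 273 changed at least 2-fold and 29 at least 8-fold, with a median difference of -1.13, whereas 39 rising genes reached 2-fold and 2 reached 8-fold, with a median of 0.59. The median difference over all named genes was 0.00. Centring arrays on their medians gave 223 probes higher and 913 lower, so the balance of rises and falls depends on the scaling. In 1021 probes (3.09%), and in 561 named genes (7.19%), the 6 very large tumors all lay on one side of the 6 small ones. With life span as a covariate 272 probes were called, 52 higher and 220 lower, and 37 of the 123 called genes named here by rule kept their call. Counts of most lists are therefore given with that covariate too, as "with life span". In bulk tissue such as this, fewer cells of a type and less RNA per cell cannot be told apart.

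**Figure D1:**
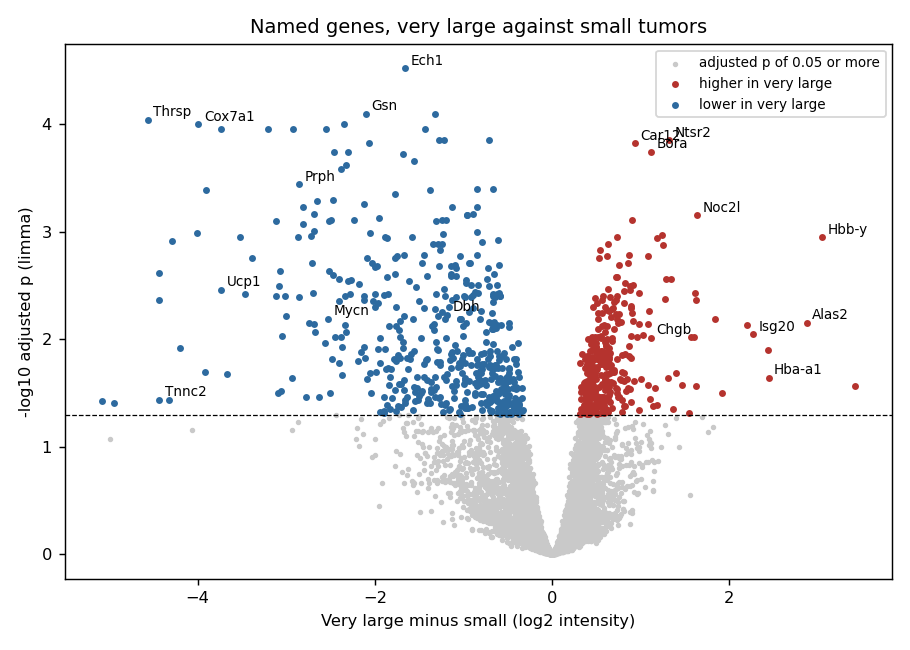
Each point is 1 named gene, with the difference between very large and small tumors (log2) on the x axis and -log10 of the limma adjusted p on the y axis, and the dashed line marks an adjusted p of 0.05. The 492 genes that fell reach further from 0 than the 314 that rose.

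Genes of fat fell most often: of the 39 gene lists, that of brown fat had the largest share of called members. Of 24 measured genes of brown fat and fatty acid oxidation, 19 fell (17 to 19 with 1 array left out and 17 with life span) and 0 rose against backgrounds of 6.3% and 4.02%, all 24 differences were negative, and their median was -1.15. Ucp1, the uncoupling protein that lets brown fat make heat, ranged from 15.46 to 19.74 (median 18.36) in small tumors and from 13.35 to 15.38 (median 14.42) in very large tumors. Every small tumor exceeded every very large tumor, and Ucp1 fell by 3.73 ± 0.74 (adjusted p = 0.00343), or 13.3-fold. Cox7a1, a cytochrome oxidase subunit of brown fat and muscle, ranged from 13.64 to 17.69 (median 15.72) in small tumors and from 9.69 to 13.44 (median 11.99) in very large tumors and fell by 3.99 ± 0.52 (adjusted p = 9.54e-05). Cox8b, a second such subunit, fell by 4.29 ± 0.75 (adjusted p = 0.00121). Pdk4, the kinase that turns cells from glucose to fat as fuel, fell by 3.91 ± 0.61 (adjusted p = 0.00041), and Ppara, the nuclear receptor that switches on fatty acid oxidation, fell by 2.87 ± 0.50 (adjusted p = 0.00112). Enzymes of the mitochondrial beta-oxidation pathway changed less but with little scatter. Ech1, an isomerase of unsaturated fatty acids, lay at 13.31 to 14.84 in small tumors (median 14.38) and at 12.40 to 12.88 in very large ones (median 12.59). It fell by 1.66 ± 0.20 (adjusted p = 3.18e-05), and this was the smallest adjusted p of any named gene. Decr1, which reduces unsaturated acyl-CoA in the same pathway, fell by 2.35 ± 0.31 (adjusted p = 9.54e-05). Crat, carnitine acetyltransferase, fell by 1.32 ± 0.17 (adjusted p = 7.97e-05). Acaa2 and Acadvl, the thiolase and the very long chain dehydrogenase, fell by 1.44 and 1.22, with no overlap between groups for either.

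White adipocyte and lipid storage genes moved the same way: 9 of 18 fell (9 to 13 with 1 array left out and 9 with life span), 0 rose and the median was -1.57. The falls were 50% of the list, against 6.3% of all named genes. Thrsp, a nuclear protein of fat-making cells, ranged from 14.25 to 18.68 (median 17.14) in small tumors and from 11.15 to 13.85 (median 12.58) in very large tumors. Its 6 small values lay above all 6 very large ones and it fell by 4.56 ± 0.59 (adjusted p = 8.96e-05), 23.6-fold and the biggest fall among genes whose groups did not overlap. Agpat2, which makes phosphatidic acid for triglyceride, fell by 3.73 ± 0.51 (adjusted p = 0.000109). Pnpla2, the first lipase of stored triglyceride, fell by 1.68 ± 0.24 (adjusted p = 0.000194), and Dgat2, the last enzyme of triglyceride synthesis, fell by 1.37 ± 0.21 (adjusted p = 0.00041). Adipocyte markers were not all called. Adipoq, the adipokine adiponectin, differed by -2.93 (adjusted p = 0.0689), Fabp4 by -1.40 (adjusted p = 0.199) and Plin1, the droplet coat protein, by -1.21 (adjusted p = 0.106).

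Skeletal muscle genes had the lowest list median, -2.27, but their levels were scattered. Of 16 measured, 6 fell (1 to 10 with 1 array left out and 1 with life span) and 0 rose. That is 37.5%, against 6.3% of all named genes that fell. Without small tumor 3 or very large tumor 2, 10 were called, and without small tumor 4, small tumor 6, very large tumor 3 or very large tumor 4 only 1 was. The repeat array of small tumor 3 gave the muscle list a mean level of 15.19, against 11.25 on its first array. Ckm, the muscle creatine kinase, ranged from 9.78 to 17.78 (median 16.78) in small tumors and from 8.25 to 14.95 (median 11.12) in very large tumors. Small tumor 3 lay at 9.78, far below the other small tumors, and very large tumor 2 at 14.95, so the groups overlapped, and Ckm fell by 4.33 ± 1.22 (adjusted p = 0.0369, up to 0.105 with 1 array left out). Tnnc2, the calcium sensor of fast fibres, fell by 4.43 ± 1.25 (adjusted p = 0.0364, up to 0.101 with 1 array left out) and Casq1, the calcium buffer of their reticulum, fell by 3.67 ± 0.94 (adjusted p = 0.0208, up to 0.0703 with 1 array left out). Eno3, muscle enolase, fell by 2.33 ± 0.47 (adjusted p = 0.00396).

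Among Schwann cell and satellite glia genes, 4 of 10 fell (2 to 5 with 1 array left out and 1 with life span), 0 rose and the median was -1.20. The share that fell was 40%, against 6.3% of all named genes. Fabp7, a lipid carrier of immature glia, fell by 3.91 ± 1.00 (adjusted p = 0.0203, up to 0.0603 with 1 array left out). Gpr37l1, a receptor of satellite glia, fell by 2.71 ± 0.50 (adjusted p = 0.00194), with 1 very large tumor at the floor of the scale. Members without a call included S100b at -1.76 (adjusted p = 0.108) and Pmp22, a myelin protein, at 0.18 (adjusted p = 0.77). Sostdc1, a secreted antagonist of BMP and WNT signals that stands in no list, fell by 4.44 ± 0.84 (adjusted p = 0.0024).

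The level of each tissue differed from tumor to tumor within the small class. The mean level of the brown fat list ranged from 14.25 to 15.65 (median 15.23) on the small tumors and from 13.11 to 13.92 (median 13.51) on the very large tumors. Small tumor 5 gave the lowest small value and still exceeded all very large tumors. The white adipocyte list ranged from 13.31 to 16.10 (median 15.19) on the small tumors and from 12.60 to 13.54 (median 13.28) on the very large tumors, and there small tumor 5, at 13.31, was within the very large range. The muscle list ranged from 11.25 to 16.38 (median 14.96) on the small tumors and from 10.26 to 14.67 (median 11.53) on the very large tumors. Small tumor 3, at 11.25, was low and very large tumor 2, at 14.67, was high. With the fat level of each array as a covariate 13 probes were called, and with the muscle level 340. The fat level, from both fat lists together, was higher on all 6 small tumors than on all 6 very large ones, so its share in any other difference and that of tumor size cannot be told apart. These single covariates were added after the data had been seen. With the muscle and fat levels together 4 probes were called.

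**Figure D2:**
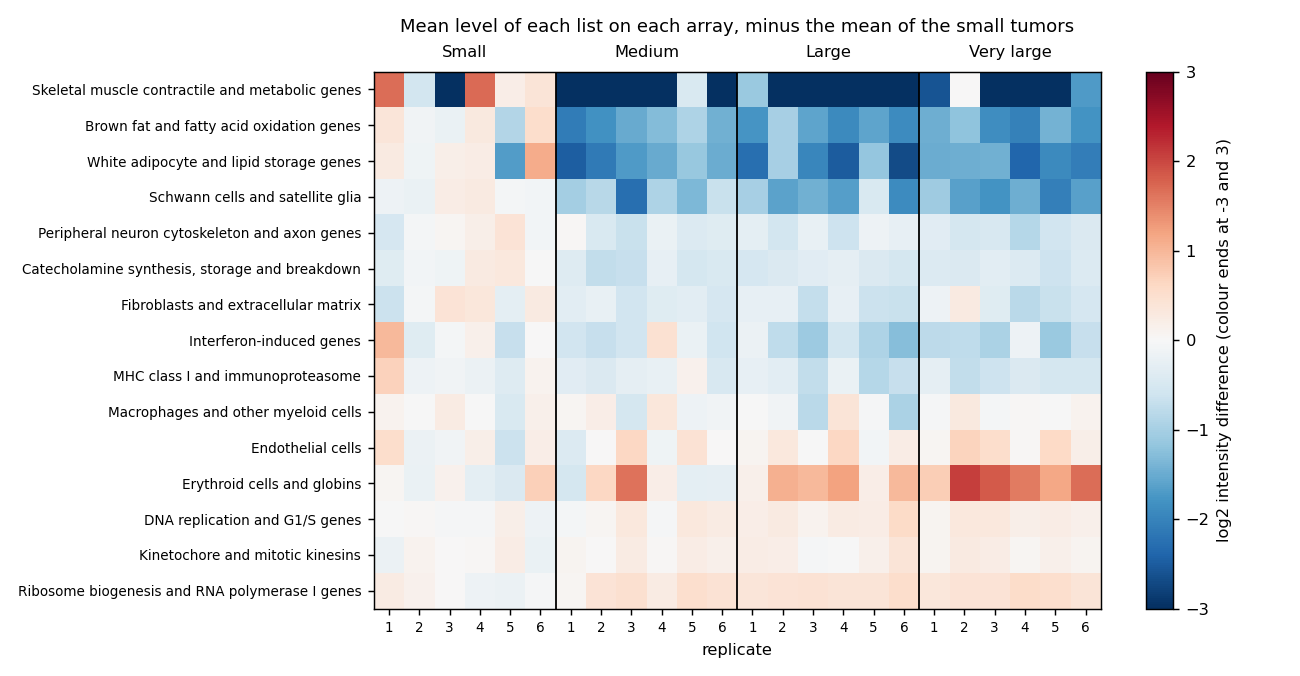
Colours give the mean log2 level of each gene list (rows) on each of the 24 tumors (columns, by size class and replicate) minus the mean of the 6 small tumors. Muscle, fat and Schwann cell lists are low on most tumors above the small class, and the erythroid list is above the small-class mean on all 6 very large tumors.

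Genes of the sympathetic lineage did not move as 1 group. Among 14 genes of catecholamine metabolism 6 fell (3 to 6 with 1 array left out and 0 with life span) and 1 rose, with a median of -0.43. In all 50% were called, against 10.3% of all named genes. Th, the rate-limiting enzyme, ranged from 17.37 to 18.02 (median 17.83) in small tumors and from 17.40 to 18.68 (median 17.75) in very large tumors, a difference of 0.11 ± 0.26 (adjusted p = 0.887). The groups overlapped almost fully, and the sign turned with arrays centred on their medians, at -0.06. Dbh, which turns dopamine into noradrenaline, lay at 13.55 to 14.68 in small tumors (median 13.68) and at 12.04 to 13.02 in very large ones (median 12.86). The groups did not overlap and Dbh fell by 1.19 ± 0.25 (adjusted p = 0.0059). Ddc, which makes dopamine, fell by 0.68 ± 0.20 (adjusted p = 0.0464, up to 0.146 with 1 array left out). Slc18a2, the vesicle transporter of monoamines, fell by 1.08 ± 0.28 (adjusted p = 0.0241, up to 0.072 with 1 array left out). Maob, a monoamine oxidase, fell by 1.14 ± 0.22 (adjusted p = 0.00245). Qdpr, which recycles the cofactor of tyrosine hydroxylase, fell by 0.45 ± 0.11 (adjusted p = 0.0119). The 1 gene to rise was Gch1, the first enzyme of that cofactor's synthesis, by 0.82. The count of rises was 0 to 1 with 1 array left out. It was 0 with life span, with arrays centred on their medians and without normalization.

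Of 23 transcription factors of the lineage 3 rose (1 to 3 with 1 array left out and 1 with life span) and 4 fell (3 to 5 with 1 array left out and 0 with life span), with a median of -0.13. Together 30.4% were called, against 10.3% of all named genes. With arrays centred on their medians 1 rose and 4 fell. Mycn, named by its mouse symbol on the array, ranged from 10.40 to 12.14 (median 11.33) in small tumors and from 7.96 to 9.35 (median 8.78) in very large tumors. All small tumors lay above all very large ones, and Mycn fell by 2.52 ± 0.54 (adjusted p = 0.0064), 5.75-fold. Its very large values were dim, not far above the floor of the scale at 7.39, and its call was not kept with life span. The probe sequence was not used here, so whether it detects transcripts of human MYCN was not tested. Myc, its relative, fell by 0.94 ± 0.20 (adjusted p = 0.00551), and Mycl fell by 0.80. Phox2a, a homeobox gene of noradrenergic identity, lay at 17.75 to 18.62 in small tumors (median 18.32) and at 16.76 to 18.11 in very large ones (median 17.05). Very large tumor 1 lay within the small range, at 18.11, the other very large tumors lay below it, and Phox2a fell by 1.08 ± 0.21 (adjusted p = 0.00254). Hand2 differed by 0.21 ± 0.13 (adjusted p = 0.442) and Gata3 by 0.26 ± 0.12 (adjusted p = 0.226), neither of them called. Without normalization the signs of Hand2 and Gata3 turned, to -0.24 and -0.20. Rising members were Nr2f1, an orphan nuclear receptor, which rose by 1.47 ± 0.39 (adjusted p = 0.0266, up to 0.0833 with 1 array left out), Pbx3, a homeobox cofactor, which rose by 0.91 ± 0.15 (adjusted p = 0.000785), and Lmo4, a LIM-only protein, with 0.71.

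Peripheral neuron cytoskeleton and axon genes fell or were not called: 5 of 24 fell (2 to 12 with 1 array left out and 1 with life span), 0 rose and the median was -0.46. The falls were 20.8% of the list, against 6.3% of all named genes. Prph, the intermediate filament peripherin of peripheral neurons, ranged from 13.17 to 15.98 (median 14.09) in small tumors and from 9.71 to 12.46 (median 11.73) in very large tumors. There was no overlap, and Prph fell by 2.86 ± 0.44 (adjusted p = 0.000364). Gap43, a protein of growing axons, fell by 0.81 ± 0.21 (adjusted p = 0.0196, up to 0.0676 with 1 array left out). Uchl1, a neuronal deubiquitinase, fell by 0.66 ± 0.15 (adjusted p = 0.00806), and Dpysl3, which guides growth cones, fell by 1.22 ± 0.31 (adjusted p = 0.0224, up to 0.0755 with 1 array left out). Stmn2, a neuronal tubulin regulator, differed by -0.51 (adjusted p = 0.0514) and Tubb3, neuronal tubulin, by -0.48 (adjusted p = 0.0514).

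Of secretory granule and synaptic lists, 13.3% of granins and neuropeptides, 15.8% of synaptic vesicle genes and 14.3% of transmitter receptors were called. The share was 16.7% for ion channels and 16.7% for growth factor receptors. Of all named genes 10.3% were called in either direction. The ion channel calls were all rises, against 4.02% of all named genes that rose. Of 15 granins and neuropeptides 1 rose (1 with 1 array left out and 0 with life span) and 1 fell (0 to 3 with 1 array left out and 0 with life span), with a median of -0.25. Chgb, a granin that loads chromaffin granules, ranged from 17.19 to 18.82 (median 18.38) in small tumors and from 18.83 to 19.73 (median 19.36) in very large tumors. Every very large tumor exceeded every small one and Chgb rose by 1.12 ± 0.25 (adjusted p = 0.00963). Chga, its sister granin, differed by 0.31 ± 0.19 (adjusted p = 0.418), and by -0.13 without normalization. Scg2, another granin, fell by 1.73 ± 0.50 (adjusted p = 0.042, up to 0.111 with 1 array left out). Among 19 synaptic vesicle genes 1 rose (0 to 1 with 1 array left out and 0 with life span) and 2 fell (1 to 3 with 1 array left out and 0 with life span), with a median of -0.24: Cadps2 and Cadps, which prime vesicles, fell by 1.56 and 0.68, the first with 1 very large tumor at the floor, and Syt1, the calcium sensor of release, rose by 0.51 ± 0.14 (adjusted p = 0.0283, up to 0.0742 with 1 array left out), with -0.01 and no call without normalization. Among 21 transmitter receptors 1 rose (1 to 2 with 1 array left out and 1 with life span) and 2 fell (2 with 1 array left out and 0 with life span), with a median of -0.20. Ntsr2, a neurotensin receptor, lay at 12.15 to 12.68 in small tumors (median 12.30) and at 13.43 to 13.99 in very large ones (median 13.78). It rose by 1.33 ± 0.19 (adjusted p = 0.000142), with no overlap. Gria1, an AMPA receptor subunit, fell by 2.28 ± 0.46 (adjusted p = 0.00376). Of 12 ion channel genes 2 rose (2 with 1 array left out and 0 with life span) and 0 fell, with a median of -0.17. Dpp6, a potassium channel partner, rose by 1.34 ± 0.26 (adjusted p = 0.00276), and Cacna2d2, a calcium channel subunit, rose by 0.83 ± 0.20 (adjusted p = 0.0135). Of 12 growth factor receptor genes 1 rose (0 to 2 with 1 array left out and 0 with life span) and 1 fell (1 to 2 with 1 array left out and 1 with life span), with a median of -0.09. Kit, the stem cell factor receptor, rose by 0.57 ± 0.14 (adjusted p = 0.017, up to 0.0623 with 1 array left out) and Ntrk2, the BDNF receptor, fell by 1.77 ± 0.28 (adjusted p = 0.000441).

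**Figure D3:**
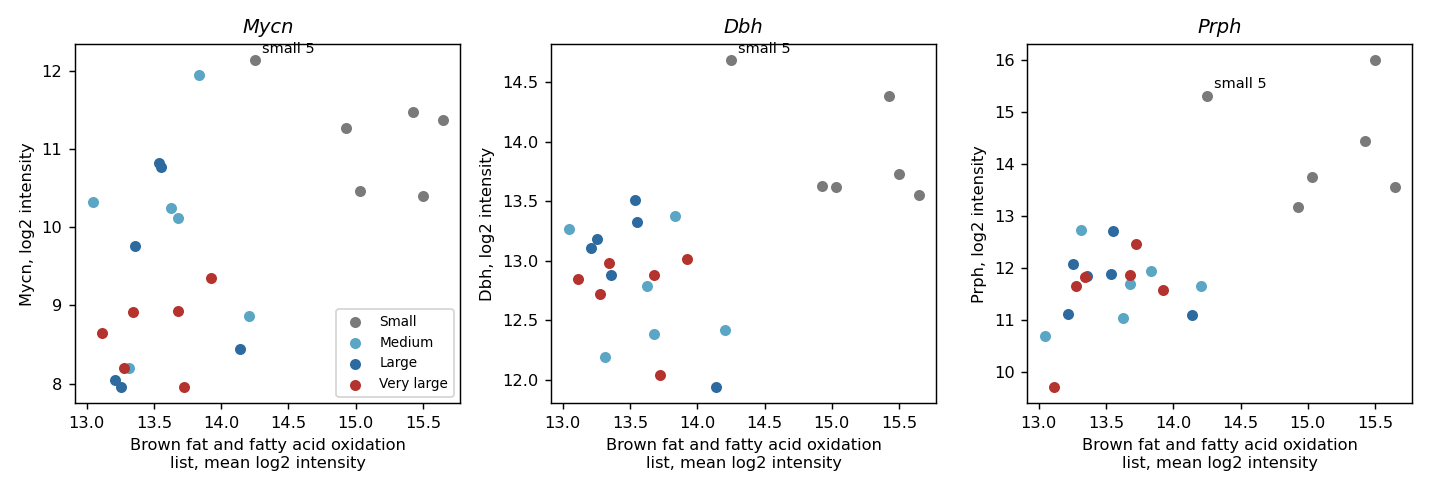
Each point is 1 tumor of the first set, with the mean log2 level of the brown fat and fatty acid oxidation list on the x axis and the log2 level of Mycn, Dbh or Prph on the y axis, coloured by size class. Small tumor 5, at 14.25 on the x axis, has the lowest fat level of the small class and the highest Mycn and Dbh of it.

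Small tumor 5, which had the least fat signal of its class, had the highest small value of Mycn (12.14) and Dbh (14.68) and the second highest of Prph (15.31). Without small tumor 5, Mycn fell by 2.33, Dbh fell by 1.04 and Prph fell by 2.67, with adjusted p of 0.0203, 0.0205 and 0.00101. Mycn, Dbh and Prph do not stand for all falling genes of their lists. Without that tumor Ddc (adjusted p = 0.121), Gap43 (adjusted p = 0.0572), Dpysl3 (adjusted p = 0.0524) and Slc18a2 lost their calls. Maob, Qdpr, Phox2a, Myc and Uchl1 kept theirs. With life span as a covariate the adjusted p was 0.277 for Mycn, 0.339 for Dbh and 0.0125 for Prph, so only the last of the 3 kept its call.

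**Figure D4:**
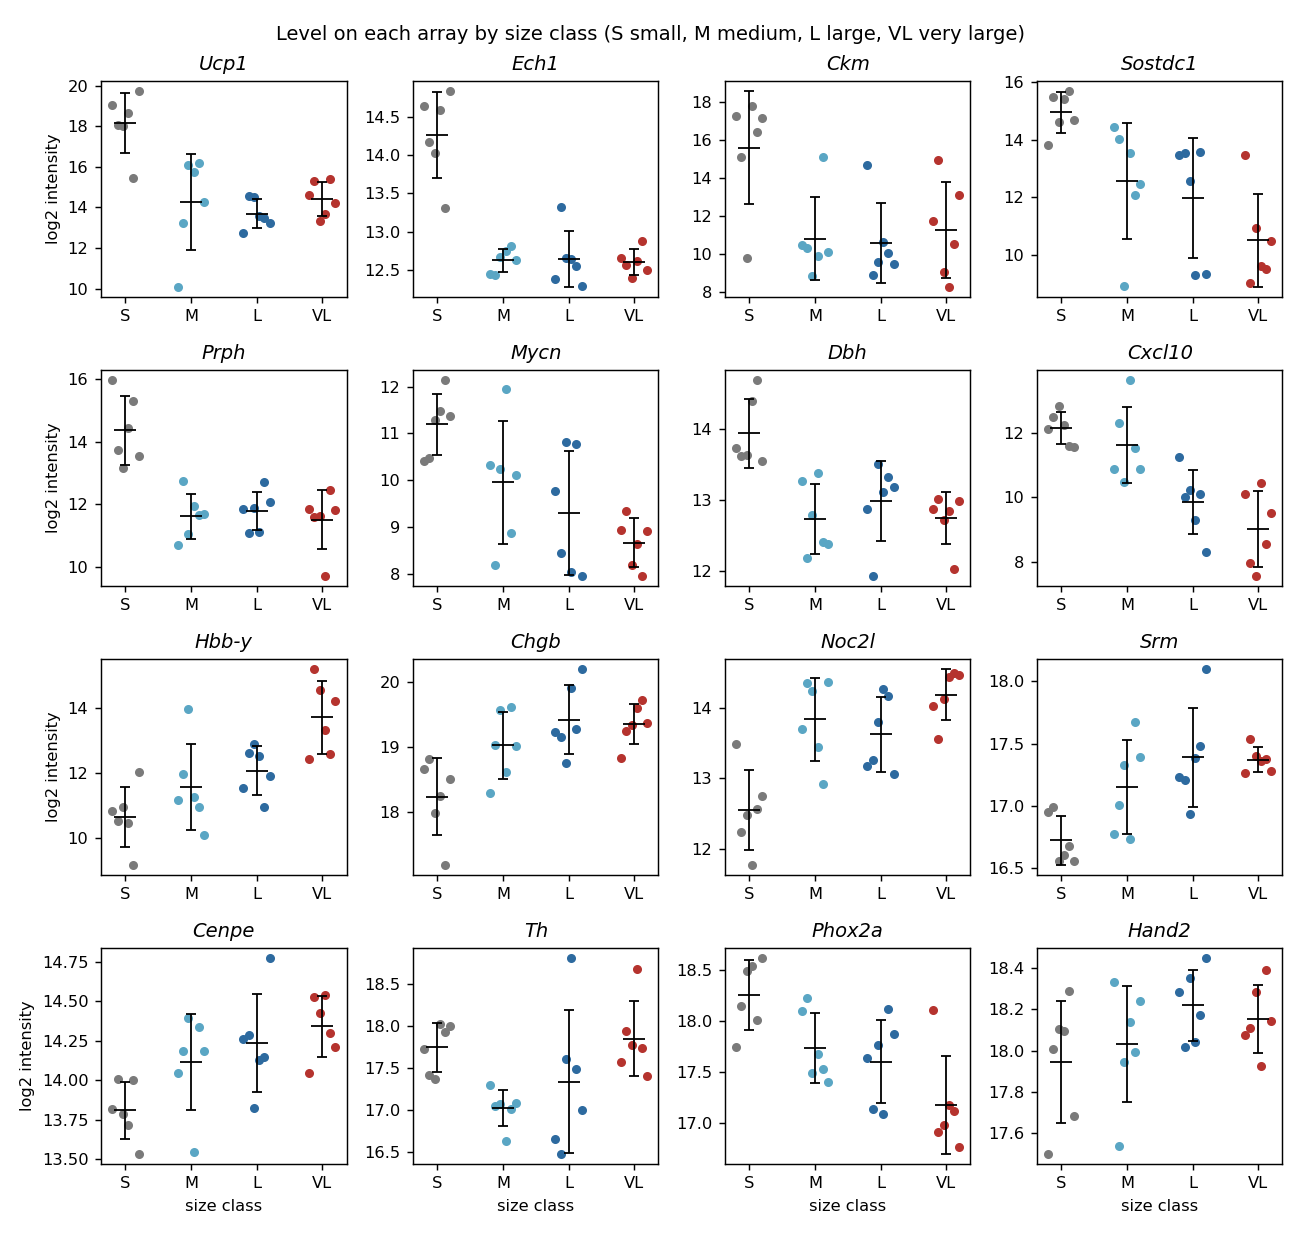
Each panel shows 1 gene, with the log2 intensity of every tumor by size class (S small, M medium, L large, VL very large, 6 tumors each) and bars for mean and SD. Ucp1, Ech1, Ckm, Sostdc1, Prph, Mycn, Dbh, Phox2a and Cxcl10 fell in very large tumors, Hbb-y, Chgb, Noc2l, Srm and Cenpe rose, and Th and Hand2 were not called.

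Red blood cell genes were among the biggest rises. Of 6 measured erythroid genes 3 rose (2 to 3 with 1 array left out and 0 with life span) and 0 fell, with a median of 1.34. The rises were 50% of the list, against 4.02% of all named genes. The adjusted p with life span was 0.0827 for Hbb-y, 0.234 for Alas2 and 0.462 for Hba-a1, and with the muscle level only Hbb-y was called. Hbb-y, an embryonic beta-like globin, ranged from 9.18 to 12.03 (median 10.68) in small tumors and from 12.44 to 15.19 (median 13.77) in very large tumors. All very large tumors lay above all small ones, and Hbb-y rose by 3.05 ± 0.53 (adjusted p = 0.00112), 8.3-fold. A second probe for Hbb-y, dimmer on average, gave 0.93 with an adjusted p of 0.414 and was not called. Alas2, the erythroid enzyme that starts haem synthesis, lay at 12.39 to 14.49 in small tumors (median 13.14) and at 14.41 to 17.39 in very large ones (median 16.21). Small tumor 6 overlapped the very large range, and Alas2 rose by 2.88 ± 0.63 (adjusted p = 0.00704). Hba-a1, adult alpha globin, rose by 2.45 ± 0.63 (adjusted p = 0.0227, up to 0.0697 with 1 array left out). Its probe may also read the near-identical copy Hba-a2. Urod and Cpox, enzymes of haem synthesis in all cells, differed by 0.19 (adjusted p = 0.521) and 0.22 (adjusted p = 0.594). The defining erythroid membrane and transcription factor genes had no named probe here, and the amount of blood in the tissue was not tested. Probe sequences were not used, so whether the Hbb-y probes also read other beta-like globins was not tested either.

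GATA factors switch on globin and haem genes, and the promoter windows of the 3 rising members from RefSeq (GRCm38.p6) are shown because each holds a GATAA word on one strand. The words, GATAA or its reverse complement TTATC, are in capitals.
Alas2: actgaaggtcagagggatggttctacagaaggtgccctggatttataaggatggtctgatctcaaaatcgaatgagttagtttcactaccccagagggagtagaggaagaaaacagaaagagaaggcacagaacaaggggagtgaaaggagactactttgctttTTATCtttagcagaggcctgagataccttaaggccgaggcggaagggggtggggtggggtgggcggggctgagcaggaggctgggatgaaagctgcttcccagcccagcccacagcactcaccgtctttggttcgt
Hba-a1: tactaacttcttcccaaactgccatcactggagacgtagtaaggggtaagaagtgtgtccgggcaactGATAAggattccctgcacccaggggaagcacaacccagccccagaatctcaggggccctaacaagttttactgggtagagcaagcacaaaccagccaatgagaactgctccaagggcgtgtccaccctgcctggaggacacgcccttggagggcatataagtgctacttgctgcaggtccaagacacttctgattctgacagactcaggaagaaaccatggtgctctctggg
Hbb-y: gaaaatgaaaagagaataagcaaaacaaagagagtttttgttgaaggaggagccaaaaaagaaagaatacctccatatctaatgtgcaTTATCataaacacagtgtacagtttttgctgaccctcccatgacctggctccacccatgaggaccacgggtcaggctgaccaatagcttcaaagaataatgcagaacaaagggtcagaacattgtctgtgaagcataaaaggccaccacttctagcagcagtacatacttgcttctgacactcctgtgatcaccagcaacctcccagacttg
These windows lie at chrX:150547167-150547466, plus strand, at chr11:32283422-32283721, plus strand and at chr7:103853158-103853457, minus strand, with the word 86, 182 and 162 bases before the annotated start. Of 5 erythroid genes with a promoter in the RefSeq table, 4 held GATAA on either strand (80.0%), against 25.4% of all 32851 promoters and 20.2% of those of named genes. A match describes the letters in the window and does not show a bound site.

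Genes that build ribosomes were higher by small amounts, and 18.8% of them rose by the test, against 4.02% of all named genes. Of 32 measured genes of ribosome biogenesis and RNA polymerase I, 6 rose (6 to 9 with 1 array left out and 1 with life span), 0 fell and all 32 differences were positive, with a median of 0.35. With arrays centred on their medians the list median was 0.13 and 2 rose. Without normalization it was -0.14, where the median of all probes stood at -0.26. Noc2l, the member with the largest difference, ranged from 11.77 to 13.48 (median 12.52) in small tumors and from 13.56 to 14.50 (median 14.29) in very large tumors. The groups did not overlap and Noc2l rose by 1.64 ± 0.27 (adjusted p = 0.000696). Aatf, which works in early small-subunit assembly, lay at 10.54 to 12.12 in small tumors (median 11.62) and at 12.47 to 14.03 in very large ones (median 12.88). It too was free of overlap and rose by 1.57 ± 0.36 (adjusted p = 0.00948). Rrp12 rose by 0.69 ± 0.14 (adjusted p = 0.00511), and Ddx21, a nucleolar RNA helicase, rose by 0.47 ± 0.10 (adjusted p = 0.00495). Nolc1 rose by 0.53 and Ipo4, an importin that carries ribosomal proteins, by 0.37.

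MYC-family proteins bind the E-box CACGTG, a palindrome that reads the same on both strands, and the Aatf promoter window from RefSeq is shown because Aatf, with Ipo4, was 1 of 2 called ribosome biogenesis genes whose window held one, and the one that rose more. The E-box is in capitals.
Aatf: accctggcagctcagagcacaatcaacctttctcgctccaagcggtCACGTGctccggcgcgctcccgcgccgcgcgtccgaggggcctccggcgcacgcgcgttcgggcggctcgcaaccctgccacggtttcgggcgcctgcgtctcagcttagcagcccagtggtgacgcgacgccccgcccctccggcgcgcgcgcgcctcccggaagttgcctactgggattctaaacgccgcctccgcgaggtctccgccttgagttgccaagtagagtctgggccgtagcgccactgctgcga
It lies at chr11:84513452-84513751, minus strand of GRCm38.p6, and the E-box starts 204 bases before the annotated start. An E-box stood in the windows of 6 of 28 ribosome biogenesis genes with a promoter listed (21.4%), against 7.15% of all promoters and 11.9% of those of named genes. The share was 12.2% among genes called higher and 11.7% among those called lower.

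Other lists of growth genes had lower shares of calls, all of them rises. They ran from 0% of cytosolic ribosomal proteins to 9.52% of the polyamine, nucleotide and one-carbon list. Of all named genes 4.02% rose. Of 21 polyamine, nucleotide and one-carbon genes 2 rose (2 with 1 array left out and 0 with life span) and 0 fell, with a median of 0.17. Srm, spermidine synthase, ranged from 16.55 to 16.99 (median 16.64) in small tumors and from 17.27 to 17.54 (median 17.37) in very large tumors and rose by 0.65 ± 0.16 (adjusted p = 0.015). Shmt2, which feeds one-carbon units from serine in mitochondria, rose by 0.96 ± 0.22 (adjusted p = 0.00949). Of 25 translation factors and tRNA synthetases 1 rose and 0 fell (median 0.09), the riser being Iars, isoleucyl-tRNA synthetase, which rose by 0.74 ± 0.13 (adjusted p = 0.00111). With arrays centred on their medians the median of the first list was -0.02 and that of the second -0.12. None of 54 cytosolic ribosomal proteins was called (median 0.10). Of 39 splicing genes 3 rose (2 to 3 with 1 array left out and 0 with life span) and 0 fell (median 0.08, or -0.11 with centred arrays). Hnrnpdl rose by 1.25 ± 0.22 (adjusted p = 0.00133) and Ptbp1, a repressor of neuronal splicing, rose by 0.61 ± 0.14 (adjusted p = 0.0113), with a second probe at 0.60.

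Cell division lists were called at shares from 10% for mitotic regulators to 12.5% for DNA replication, and all these calls were rises. Of all named genes 4.02% rose and 10.3% were called in either direction. Of 26 kinetochore and mitotic kinesin genes 3 rose (0 to 3 with 1 array left out and 0 with life span) and 0 fell, with a median of 0.19. Cenpe, the kinetochore kinesin that the study's title names as a target, ranged from 13.53 to 14.01 (median 13.80) in small tumors and from 14.04 to 14.54 (median 14.36) in very large tumors. All very large tumors lay above all small tumors, and Cenpe rose by 0.53 ± 0.15 (adjusted p = 0.0348, up to 0.0876 with 1 array left out), or 1.45-fold. Spc24, of the NDC80 complex that holds microtubules, rose by 0.68 ± 0.17 (adjusted p = 0.0202, up to 0.059 with 1 array left out), and Cenpp rose by 0.43 ± 0.13 (adjusted p = 0.0468, up to 0.135 with 1 array left out). Bub3 differed by -0.42 (adjusted p = 0.341). Of 20 mitotic entry and exit regulators 2 rose (1 to 2 with 1 array left out and 0 with life span) and 0 fell (median 0.17). Plk4, the kinase of centriole duplication, rose by 0.59 ± 0.14 (adjusted p = 0.0149), and Cdc25a, the phosphatase that frees cyclin-dependent kinases, rose by 0.40 ± 0.10 (adjusted p = 0.0242, up to 0.0657 with 1 array left out). Without normalization Cdc25a and Cenpp stood at -0.04 and -0.09, where the median of all probes was -0.26. Of 32 DNA replication genes 4 rose (1 to 4 with 1 array left out and 0 with life span) and 0 fell (median 0.20). Lig1, the ligase of Okazaki fragments, rose by 0.89 ± 0.25 (adjusted p = 0.0381, up to 0.0906 with 1 array left out), Pold2, a polymerase delta subunit, rose by 0.46 ± 0.11 (adjusted p = 0.0122), and Pole2, of polymerase epsilon, rose by 0.56 ± 0.16 (adjusted p = 0.0408, up to 0.113 with 1 array left out). Top2a differed by -0.36 (adjusted p = 0.367). With arrays centred on their medians these 3 lists had medians of -0.03, -0.02 and -0.01, and none of their members rose, so their direction rests on the scaling.

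Some of the clearest rises stood in no growth list. Bora, an activator of Aurora A and PLK1 at mitotic entry, ranged from 12.87 to 13.56 (median 13.06) in small tumors and from 13.95 to 14.54 (median 14.39) in very large tumors. The groups were far apart and Bora rose by 1.12 ± 0.16 (adjusted p = 0.000176). Car12, a carbonic anhydrase of the cell surface, lay at 14.92 to 15.66 in small tumors (median 15.28) and at 15.88 to 16.38 in very large ones (median 16.20). It rose by 0.94 ± 0.13 (adjusted p = 0.000149), with no overlap. Slc16a3, the lactate exporter MCT4, rose by 1.24 ± 0.21 (adjusted p = 0.00107), Dusp14, a phosphatase of MAP kinases, rose by 0.98 ± 0.19 (adjusted p = 0.00367), and Chd1, a chromatin remodeller, rose by 0.63 ± 0.11 (adjusted p = 0.00129). BC024561 rose by 1.62 ± 0.33 (adjusted p = 0.00433), Ppnr rose by 1.60 ± 0.36 (adjusted p = 0.00955) and C77032 rose by 1.08 ± 0.20 (adjusted p = 0.00167). Rttn, a centriole protein, rose by 1.10 ± 0.23 (adjusted p = 0.00546), Ndel1, a dynein partner, rose by 0.98 ± 0.29 (adjusted p = 0.0449, up to 0.117 with 1 array left out), and Lama4, a laminin chain of vessel walls, rose by 0.98 ± 0.22 (adjusted p = 0.00718).

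Of polycomb, histone methylation and remodelling genes 14.8% were called, and of imprinted genes 23.1%. Of all named genes 10.3% were called, 4.02% higher and 6.3% lower. Of 27 polycomb, histone methylation and remodelling genes 4 rose (1 to 5 with 1 array left out and 1 with life span) and 0 fell, with a median of 0.12 that was -0.08 with centred arrays, where 1 rose. Without normalization none rose. Setd1a, a histone H3 lysine methyltransferase, rose by 1.19 ± 0.21 (adjusted p = 0.00114), with no overlap between groups. Its relative Setd1b rose by 0.46 ± 0.12 (adjusted p = 0.0286, up to 0.0832 with 1 array left out), Arid1a, a subunit of the SWI/SNF remodeller, rose by 0.47 ± 0.12 (adjusted p = 0.0226, up to 0.0748 with 1 array left out), and Hdac5, a histone deacetylase, rose by 0.51 ± 0.13 (adjusted p = 0.0187, up to 0.064 with 1 array left out). Of 13 imprinted genes 2 rose, 0 to 2 with 1 array left out and 0 with life span, and 1 fell, 0 to 2 with 1 array left out and 0 with life span (median 0.07, or -0.14 with centred arrays). Cdkn1c, a cell cycle inhibitor, fell by 0.71 ± 0.20 (adjusted p = 0.0345, up to 0.116 with 1 array left out), Sgce rose by 0.74 ± 0.20 (adjusted p = 0.0291, up to 0.0851 with 1 array left out) and the potassium channel gene Kcnq1 rose by 1.10 ± 0.31 (adjusted p = 0.0361, up to 0.0886 with 1 array left out). Igf2, a fetal growth factor, differed by 0.07 (adjusted p = 0.972).

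Immune lists differed in their share of called genes, 26.7% of interferon-induced and 20% of MHC class I genes but 5.88% of myeloid genes, against 10.3% of all named genes. Of 15 interferon-induced genes 3 fell (2 to 3 with 1 array left out and 2 with life span) and 1 rose (1 with 1 array left out and 0 with life span), with a median of -0.999. Cxcl10, a chemokine that draws T cells, ranged from 11.57 to 12.83 (median 12.18) in small tumors and from 7.57 to 10.46 (median 9.03) in very large tumors. No values overlapped and Cxcl10 fell by 3.11 ± 0.52 (adjusted p = 0.000793). Ifi47, an interferon-gamma GTPase, fell by 2.04 ± 0.56 (adjusted p = 0.0314, up to 0.0962 with 1 array left out) and Ifi27 fell by 1.26 ± 0.22 (adjusted p = 0.00147). Isg20, an exonuclease that acts on viral RNA, went the other way: it lay at 11.11 to 12.73 in small tumors (median 11.71) and at 12.16 to 15.48 in very large ones (median 14.61) and rose by 2.27 ± 0.51 (adjusted p = 0.00893). Of 10 MHC class I and immunoproteasome genes 2 fell (1 to 2 with 1 array left out and 0 with life span) and 0 rose (median -0.43). Tap1, a peptide transporter, fell by 1.71 ± 0.41 (adjusted p = 0.0147), and Calr, a chaperone of class I assembly, fell by 0.57 ± 0.17 (adjusted p = 0.0433, up to 0.123 with 1 array left out). Of 17 myeloid genes 1 fell and 0 rose (median 0.10, or -0.12 with centred arrays): Ccl2, a chemokine for monocytes, fell by 1.66 ± 0.47 (adjusted p = 0.0365, up to 0.09 with 1 array left out), while Cd14 differed by -0.41 (adjusted p = 0.584) and C1qa by -0.02 (adjusted p = 0.976). Of 5 lymphocyte genes 0 rose and 0 fell (median -0.02).

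Stromal genes moved in both directions, and 24.2% of fibroblast and matrix genes were called, against 10.3% of all named genes. Of 33 fibroblast and matrix genes 6 fell (6 to 8 with 1 array left out and 2 with life span) and 2 rose (2 with 1 array left out and 0 with life span), with a median of -0.24. Lum, the collagen-binding proteoglycan lumican, ranged from 11.31 to 14.67 (median 13.72) in small tumors and from 8.88 to 12.18 (median 10.54) in very large tumors. Small tumor 1 was low, and Lum fell by 3.01 ± 0.61 (adjusted p = 0.00394). Ogn, a related proteoglycan, fell by 1.87 ± 0.36 (adjusted p = 0.00261), Timp2, a metalloproteinase inhibitor, fell by 1.14 ± 0.22 (adjusted p = 0.00254) and Dcn, decorin, fell by 2.37. Ccn2, a matrix protein induced by growth factors, rose by 1.29 ± 0.25 (adjusted p = 0.00276). The fibrillar collagen gene Col1a1 differed by 0.14 (adjusted p = 0.898). None of 13 endothelial genes was called, though all 13 differences were positive, with a median of 0.31 that became 0.05 with arrays centred on their medians and -0.22 without normalization. Kdr, the main VEGF receptor, differed by 0.33 (adjusted p = 0.485). Of 20 hypoxia and glycolysis genes 2 fell (0 to 4 with 1 array left out and 0 with life span) and 0 rose (median -0.09). That is 10% called, against 10.3% of all named genes called in either direction and 6.3% that fell. Egln3, an oxygen sensor, fell by 2.78 ± 0.77 (adjusted p = 0.034, up to 0.105 with 1 array left out), and Hif1a fell by 0.53 ± 0.15 (adjusted p = 0.0423, up to 0.116 with 1 array left out). Vegfa, the main vessel growth factor, lay at 11.53 to 13.27 in small tumors (median 12.29) and at 12.69 to 13.62 in very large ones (median 12.91), a difference of 0.64 ± 0.24 (adjusted p = 0.13), and its second probe differed by 0.35 (adjusted p = 0.601).

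Of the stress lists, 14.3% of p53 and apoptosis genes, 16% of unfolded protein response genes and 7.41% of chaperones were called, against 10.3% of all named genes. Of 21 p53 and apoptosis genes 3 fell (1 to 4 with 1 array left out and 0 with life span) and 0 rose (median -0.11). Cdkn1a, the p53 target p21, ranged from 11.99 to 13.78 (median 12.98) in small tumors and from 7.73 to 12.37 (median 11.94) in very large tumors. Very large tumor 4 stood alone at the bottom, and the difference was -1.66 ± 0.54 (adjusted p = 0.073). Phlda3 fell by 1.04 ± 0.22 (adjusted p = 0.0064), Trp53inp1 fell by 1.26 ± 0.35 (adjusted p = 0.034, up to 0.0929 with 1 array left out) and Ei24 fell by 0.41 ± 0.10 (adjusted p = 0.0167, up to 0.062 with 1 array left out). Of 25 unfolded protein response genes 2 rose (2 with 1 array left out and 0 with life span) and 2 fell (0 to 2 with 1 array left out and 0 with life span), with a median of -0.06 and no call with centred arrays: Atf4, the stress-response factor, rose by 0.61 ± 0.14 (adjusted p = 0.0114), Bhlha15 rose by 0.56 ± 0.13 (adjusted p = 0.0129) and Dnajb9, a chaperone of the endoplasmic reticulum, fell by 0.70 ± 0.21 (adjusted p = 0.0458, up to 0.122 with 1 array left out). Of 27 cytosolic chaperones 2 fell and 0 rose (median 0.00), namely Hspb8, which fell by 2.69 ± 0.46 (adjusted p = 0.00098), and Cryab, which is also in the Schwann cell list and fell by 1.48 ± 0.41 (adjusted p = 0.0318, up to 0.0948 with 1 array left out). Both are small heat shock proteins that are abundant in muscle.

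The next lists had called shares of 3.57% for proteasome, 6% for respiratory chain and 5.88% for cholesterol synthesis genes. The shares were 5.26% for immediate-early and 20% for adrenal cortex genes. Of all named genes 4.02% rose and 6.3% fell. Of 28 proteasome genes 1 rose and 0 fell (median -0.04), the riser being Psmc6, which rose by 0.41 ± 0.09 (adjusted p = 0.0099) but stood at -0.04 without normalization. Of 50 respiratory chain genes 3 fell (1 to 3 with 1 array left out and 1 with life span) and 0 rose (median -0.16). Cox6a2, the heart and muscle form of its subunit, fell by 3.10 ± 0.85 (adjusted p = 0.0314, up to 0.0918 with 1 array left out), Cycs, cytochrome c, fell by 0.89 ± 0.19 (adjusted p = 0.00511) and Sdhc fell by 0.40 ± 0.11 (adjusted p = 0.028, up to 0.0824 with 1 array left out). Of 17 cholesterol synthesis genes 1 fell and 0 rose (median -0.34). Mvk, mevalonate kinase, fell by 1.45 ± 0.26 (adjusted p = 0.00165). Of 19 immediate-early genes 1, Myc, fell and 0 rose (median -0.17). Among 5 adrenal cortex genes 1 fell and 0 rose (median 0.05). This was Mrap, a partner of the ACTH receptor that fat also expresses, which fell by 3.47 ± 0.69 (adjusted p = 0.00376), while Cyp21a1, the cortical 21-hydroxylase, differed by 0.05 (adjusted p = 0.959). The 1 kidney gene measured, Aqp1, differed by -0.78 (adjusted p = 0.075).

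**Figure D5:**
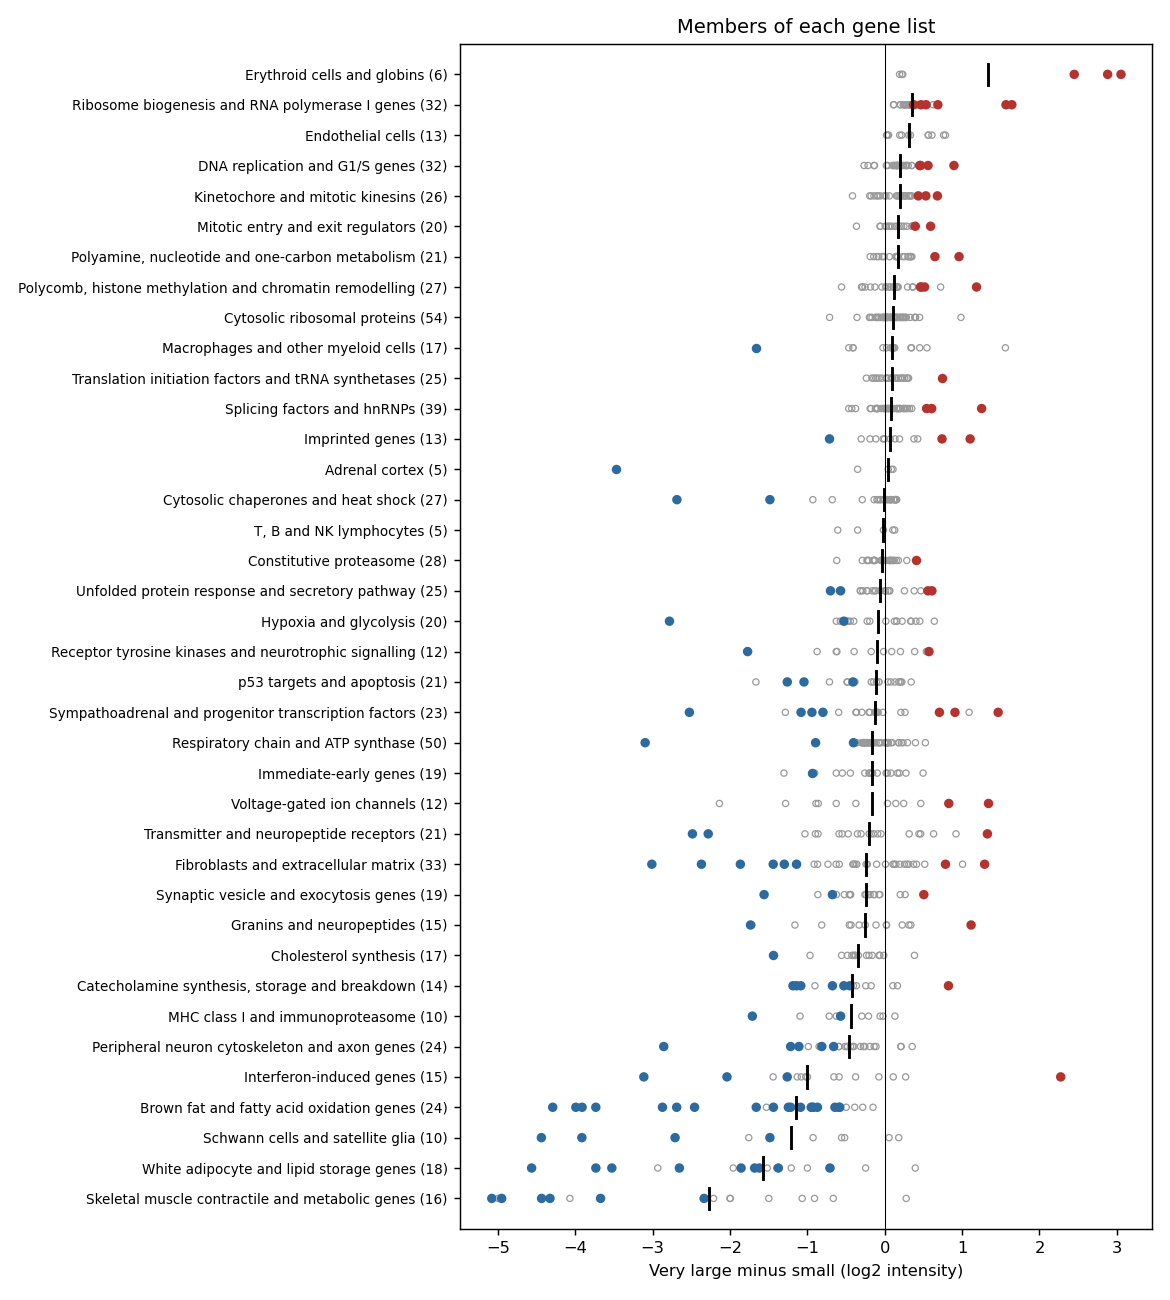
Each row is a gene list with its number of measured genes, each point is 1 gene's difference between very large and small tumors (log2), filled red or blue where the gene was called higher or lower, and the black bar is the median. The skeletal muscle list has the lowest median and the erythroid list the highest.

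Several strong falls lay outside the lists. Gsn, the actin-severing protein gelsolin, lay at 16.18 to 17.27 in small tumors (median 16.65) and at 14.07 to 15.11 in very large ones (median 14.66) and fell by 2.10 ± 0.27 (adjusted p = 7.97e-05). Ndrg2 fell by 2.55 ± 0.34 (adjusted p = 0.000106), Coq8a, a mitochondrial kinase-like protein needed for coenzyme Q, fell by 2.92 ± 0.39 (adjusted p = 0.000106), and Tm4sf4, a tetraspanin-like membrane protein, fell by 3.21 ± 0.43 (adjusted p = 0.000105). Fmo1, a flavin monooxygenase, fell by 4.01 ± 0.68 (adjusted p = 0.00103). Ackr3, a scavenging receptor for CXCL12, fell by 2.81 ± 0.45 (adjusted p = 0.000585) and Abca8a, a lipid transporter, fell by 2.86 ± 0.58 (adjusted p = 0.00405). Slc25a35, a mitochondrial carrier, fell by 3.12 ± 0.63 (adjusted p = 0.0039), and Ppp1r3c, a glycogen-targeting subunit of protein phosphatase, fell by 3.08 ± 0.60 (adjusted p = 0.00319). Lpd fell by 3.07 ± 0.58 (adjusted p = 0.00229). None of these 10 genes overlapped between the groups, against 7.19% of all named genes without overlap. For those named as largest falls, lack of overlap was part of the rule that picked them. The others were picked by smallest p, which favours groups that do not overlap, so this comparison carries no test.

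Very large tumors were then set against the classes next to them, in the same model and with the same 6 very large arrays. Against medium tumors (0.24 to 0.46 g) 0 probes were called by limma (0.0%), with 1857 at an unadjusted p under 0.05. Against large tumors (0.76 to 1.3 g) 0 were called (0.0%), with 1689 at an unadjusted p under 0.05. By their medians, the genes called between very large and small tumors differed from small tumors in the same direction in the classes between, which is a description of the same arrays. Rising genes had a median of 0.37 for medium minus small, 0.46 for large minus small and 0.59 for very large minus small. For falling genes these medians were -0.72, -0.83 and -1.13. These steps share the small arrays and the choice of genes, so they carry no test. The fat and muscle lists were already low in medium tumors and did not step down steadily from there. Mean levels in small, medium, large and very large tumors were 15.13, 13.62, 13.51 and 13.51 for the brown fat list. They were 14.98, 13.24, 13.06 and 13.19 for the white adipocyte list, and 14.67, 11.39, 11.25 and 11.92 for the muscle list.

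Class means of single genes are given as examples, and differences between their courses were not tested. Mycn had means of 11.19 ± 0.66 (SD, n = 6) in small, 9.95 ± 1.31 in medium, 9.30 ± 1.33 in large and 8.67 ± 0.52 in very large tumors. Very large minus medium was -1.28 ± 0.54 (adjusted p = 0.847) and very large minus large was -0.63 ± 0.54 (adjusted p = 0.92), neither past the threshold. Cxcl10 had means of 12.14 ± 0.50, 11.62 ± 1.18, 9.87 ± 0.98 and 9.03 ± 1.17 in the same order, and very large minus medium was -2.59 ± 0.52 (adjusted p = 0.327). For Alas2 very large minus medium was 2.58 ± 0.63 (adjusted p = 0.486) and very large minus large 1.60 ± 0.63 (adjusted p = 0.914). For Th the medium mean was 17.02 ± 0.22, below both ends of the range at 17.74 ± 0.29 and 17.85 ± 0.45, and very large minus medium was 0.83 ± 0.26 (adjusted p = 0.704). Ech1 had a mean of 12.63 ± 0.15 in medium tumors and 12.60 ± 0.17 in very large tumors.

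The tumors of each class differed in how many called genes set them beyond the other class. These genes were called on the same arrays, so high shares follow from the choice of genes and carry no test. Across the 492 falling named genes, the share in which a small tumor lay above all 6 very large ones ran from 73.2% for small tumor 1 to 97.2% for small tumor 4. Across the 314 rising genes, the share in which it lay below all of them ran from 63.7% to 96.8% for the same pair of tumors. Among very large tumors, replicate 1 (1.6 g, the lightest) was beyond all small tumors in the fewest genes, 67.7% of those that fell and 64.6% of those that rose. Leaving out 1 array at a time gave 827 calls without small tumor 4 to 2017 without small tumor 1, and 1002 without very large tumor 5. Of the 123 called genes named here by rule, 83 kept their call whichever array was left out. Without normalization 61 did, and with life span 37, so age and size at harvest cannot be fully told apart here.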

How the data were processed

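Single-colour array intensities from the deposited series table were used, per the deposited files, for the 24 tumors of the first set. For imaging and background correction the sources used here name no method. The deposited intensity values were not normalized between arrays, so they were quantile normalized here with limma, raised to the 1st percentile (168.105) and converted to log2. Of 33012 probes, 16 lacked a value and 32996 were tested. Linear models with 4 size classes and an intensity trend were fitted with limma 3.58.1 in R 4.3.3 (lmFit, eBayes, two-sided), with Benjamini-Hochberg adjustment over all probes. Python 3.11.15 with pandas 2.3.3, numpy 2.4.6 and matplotlib 3.10.9 was used for the rest.

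Gene names came from the authors' table of 12688 probes, of which 8354 carried 1 symbol, 150 several and 4184 none. Through RefSeq (GRCm38.p6) 3087 symbols were updated, 5010 needed no change and 257 stayed as deposited. The probe with the highest mean stood for each of 7804 genes. Probes without a name entered the counts only. That table holds the second set alone, and its values were not used.

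The text names the 20 largest rises and 20 largest falls with groups that did not overlap and no value at the floor, the 10 rising and 10 falling genes of smallest p, up to 4 called genes in each of 39 lists, and 16 key genes, a few of which are not reported here. Other list members are given by their difference alone and were picked as examples with their values known. The members and lists were chosen with earlier results of these data known. Alternatives covered normalization, the samples in the fit, the variance prior, array weights, the floor, dim probes, life span, muscle and fat levels, and each array left out. The fitting code was tested on simulated data. The number of arrays limits the precision of every value.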

Additional observations from a re-analysis of the deposited data

Results flagged for a closer look

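In each group of 6 tumors, a value was picked out where its gap to the next tumor was large for the range of the group (Dixon's test at the 95% level). Chance gives about 1 such value in 20 groups, and 22 values were found in 258 groups examined. Small tumor 3 was low in the muscle genes Ckm (9.78, next 15.11) and Tnnc2 (11.72, next 16.61), and in Bhlha15 (12.52). Very large tumor 4, the array that stood apart, was low in Cdkn1a (7.73, next 11.66) and Prph (9.71, next 11.58) and high in Cacna2d2 (15.50).

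Very large tumor 1, the lightest of its class, was high in Phox2a (18.11, next 17.18) and Dnajb9 (14.34). Small tumor 1 was low in Lum (11.31, next 13.65), Calr (14.36) and Spc24 (12.84) and high in Tap1 (12.10). Small tumor 5, the one with the least fat signal, was low in Slc25a35 (10.22), Ifi27 (14.94) and Nr2f1 (11.06). Small tumor 4 was low in Lig1 (14.56, next 16.32) and Arid1a (16.19), and small tumor 6 was high in Slc16a3 (12.72).

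Very large tumor 2, which had the highest muscle level of its class, was high in Cryab (14.68, next 12.65). Very large tumor 3 was low in Acadvl (16.62) and high in Pole2 (15.04), and very large tumor 5 was low in Dbh (12.04, next 12.72).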

How the results depend on the processing

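For very large against small tumors, calls came to 552 without normalization (25 higher, 527 lower), where the median of all probes moved to -0.26, to 964 without the intensity trend and to 272 with life span as a covariate. They came to 4 with muscle and fat levels as covariates, 340 with muscle alone and 13 with fat alone, the last pair added after the data were seen. Leaving out 1 array gave 827 to 2017. The other alternatives stayed within 1.5 times the 1549 calls. Very large against medium tumors gave 0 to 6 calls and very large against large tumors 0 to 4 when 1 array was left out, and 0 under the other alternatives that were run. The cause of these changes was not tested.

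Some signs turned. Th was -0.063 with centred arrays, -0.33 without normalization, -0.073 with life span, -0.23 with muscle and fat, -0.24 with fat, and -0.061 (without very large tumor 4) to 0.20 with 1 array left out. Without normalization Cdc25a was -0.041, Cenpp -0.091, Chga -0.13, Gata3 -0.20, Hand2 -0.24, Psmc6 -0.040 and Syt1 -0.012. With muscle and fat, Casq1 was 0.34, Hand2 -0.17 and Ucp1 0.52, and with fat alone Hand2 was -0.14, Pnpla2 0.0036 and Ucp1 0.41. Casq1, Pnpla2 and Ucp1 are themselves part of those covariates.

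No paired analysis was possible because replicate numbers were given in accession order to separate mice. Fitting the 12 arrays alone could not be done for the other 2 comparisons. Arrays give no counts, and signal near the floor limits dim genes.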

Other observations

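Small tumors 3 and 6 were also hybridised in the second set, on arrays that were normalized apart from the first set and entered no comparison. The mean level of the skeletal muscle list was 11.25 for small tumor 3 and 15.05 for small tumor 6 in the first set, and 15.19 and 15.16 in the second. The white adipocyte list stood at 15.17 and 16.10 in the first set and at 16.10 and 15.92 in the second. Across 32996 probes the difference between the 2 tumors in one set correlated with that in the other at r = 0.024, and at r = 0.011 over the 1549 called probes. Probes are not independent, and the arrays of a pair share the titled tumor alone.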
